A study of Mus musculus with 12 samples.

Results

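The megakaryocyte and platelet genes described here are 9 genes taken by symbol from the 24062 symbols of the count files: Pf4, Ppbp, Itga2b, Gp9, Gp1ba, Gp1bb, Gp5, Gp6 and Vwf. All 9 were found, and all 9 passed the filter on low counts. RNA was sequenced from 12 libraries of C57BL/6J mouse bone marrow cells, 3 in each of 4 groups. GFPneg and GFPpos were fresh sorts of untransduced cells lacking CD45 (blood cells), Ter119 (red cell precursors) and CD31 (endothelium), and they differed in the Scf-GFP reporter of the stem cell factor gene Kitl, which was off in GFPneg and on in GFPpos. Control and rMSC were stroma cultured with 20% fetal bovine serum and 10 ng/ml basic FGF from reporter-positive cells that had passed the same depletion of CD45, Ter119 and CD31. Control carried a control vector, and rMSC (revitalized mesenchymal stromal cells) carried Klf7, Ostf1, Xbp1, Irf3 and Irf7 together. Each library came from 1000 to 5000 sorted cells and held 60507051 to 85353566 counts. Separate animals or cultures are not stated for the replicates, so the p-values cover the spread between libraries, which may be technical.

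Megakaryocytes are the marrow cells that shed platelets, and many of the 9 genes encode proteins that a platelet uses to stick to a wound. Glycoproteins Ib alpha, Ib beta, IX and V (Gp1ba, Gp1bb, Gp9 and Gp5) form the surface receptor for von Willebrand factor (Vwf), glycoprotein VI (Gp6) binds collagen, and integrin alpha IIb (Itga2b, the CD41 antigen) binds fibrinogen in a pair with integrin beta 3. Pf4 and Ppbp encode the chemokines platelet factor 4 and pro-platelet basic protein of the alpha granules. Vwf is also made by endothelium, and Itga2b is also found on early blood progenitors. In marrow, megakaryocytes lie against the sinusoids beside reporter-positive perivascular stroma.

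The labelled cell types were first set against their markers. Kitl stood at 367 ± 98.7 CPM (depth-scaled counts, TMM factors, mean ± SD, n = 3) in GFPpos and at 0.532 ± 0.921 CPM in GFPneg. Lepr, the leptin receptor gene of niche stroma, stood at 2641 ± 445 CPM in GFPpos and 0.511 ± 0.506 CPM in GFPneg. The summed level of 11 perivascular stroma markers reached at most 49.9 CPM in a GFPneg library (lowest 2.14) and at least 164206 CPM in a GFPpos library (highest 208688). In GFPneg, Kitl was at 0 counts in replicates 2 and 3. The sum over 12 erythroid markers ran from 7067 to 7296 CPM in GFPneg and from 1125 to 2105 CPM in GFPpos. The GFPneg libraries, labelled as bone marrow stromal cells, thus held erythroid markers far above stromal ones. In bulk RNA, fewer cells of a type and less RNA per cell cannot be told apart, here or in any value below.

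In GRCm38 with the GENCODE M21 annotation, Ppbp (chr5:90768518-90770063) and Pf4 (chr5:90772435-90773383) are neighbours on the plus strand. Gp1ba (chr11:70639122-70642036, plus) and Itga2b (chr11:102453297-102470122, minus) lie on chromosome 11, Gp9 (chr6:87778072-87779768, plus) and Vwf (chr6:125546774-125686679, plus) on chromosome 6, Gp1bb (chr16:18620317-18622403, minus) and Gp5 (chr16:30307685-30310779, minus) on chromosome 16, and Gp6 (chr7:4363965-4397744, minus) on chromosome 7. For 8 of the 9 genes no exon of another gene overlapped their exons. Of the exon bases of Gp1bb, 92.9% were shared with Sept5 and Gm49601 on the same strand, so the counts of Gp1bb are uncertain in every group.

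Promoters are shown for 4 of the genes because they differed in the fresh libraries: Pf4 and Itga2b were nearly absent from GFPneg replicates 1 and 3, while Gp9 and Gp5 were present there. Sequences are from RefSeq (GRCm38.p6), the 250 bases before the start of the gene in that annotation, 5′ to 3′ on the gene's strand. For Itga2b, 239 of the 250 bases lie inside the gene as GENCODE M21 places it, so its window is upstream of the RefSeq start only. Capitals mark AGATAA, a form of the site that GATA factors bind, and GGAAG, a core of ETS factors such as Fli1. Each was searched on both strands (on the other strand they read TTATCT and CTTCC).
Pf4 (chr5:90772185-90772434, plus strand): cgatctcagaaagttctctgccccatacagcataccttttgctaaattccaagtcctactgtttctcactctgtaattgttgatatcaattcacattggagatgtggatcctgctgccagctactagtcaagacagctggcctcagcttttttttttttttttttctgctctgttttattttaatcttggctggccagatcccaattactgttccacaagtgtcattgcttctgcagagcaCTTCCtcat
Itga2b (chr11:102469884-102470133, minus strand): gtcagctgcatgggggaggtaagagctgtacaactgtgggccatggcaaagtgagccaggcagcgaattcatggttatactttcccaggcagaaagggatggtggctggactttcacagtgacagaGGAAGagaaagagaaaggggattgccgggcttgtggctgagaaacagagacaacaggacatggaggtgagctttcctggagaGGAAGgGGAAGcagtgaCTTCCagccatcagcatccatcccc
Gp9 (chr6:87777820-87778069, plus strand): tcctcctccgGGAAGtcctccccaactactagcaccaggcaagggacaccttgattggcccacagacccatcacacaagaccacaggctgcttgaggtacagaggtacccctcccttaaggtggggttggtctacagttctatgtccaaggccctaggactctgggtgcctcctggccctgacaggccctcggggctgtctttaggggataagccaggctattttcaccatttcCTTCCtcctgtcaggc
Gp5 (chr16:30310782-30311031, minus strand): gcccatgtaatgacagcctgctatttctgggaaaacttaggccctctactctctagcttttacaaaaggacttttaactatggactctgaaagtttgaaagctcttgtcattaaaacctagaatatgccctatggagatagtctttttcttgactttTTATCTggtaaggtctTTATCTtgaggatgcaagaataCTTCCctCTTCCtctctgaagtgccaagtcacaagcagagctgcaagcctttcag
Of the 8 genes with an entry in the table, which excludes Vwf, 7 held GGAAG, as did 63.6% of the 27025 promoters of the same length. Gp5 and Gp6, or 2 of the 8, held AGATAA, against 10.3% of all promoters. Gp5 held both motifs, against 5.93% of all promoters. The letters AGATAA are not in these windows of Pf4, Itga2b or Gp9. Other forms of the GATA site were not searched for, so no lack of such sites is read from this.

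Pf4 stood at 15.8, 1083 and 740 CPM in GFPpos replicates 1, 2 and 3 and at 0.591, 18.1 and 0.572 CPM in GFPneg replicates 1, 2 and 3. GFPpos replicate 1 thus lay below GFPneg replicate 2, and the groups overlapped. Ppbp stood at 34.9, 751 and 989 CPM in the GFPpos replicates and at 0.827, 72.8 and 0.323 CPM in the GFPneg replicates. The same pair of libraries overlapped for Ppbp, with GFPneg replicate 2 high within its group and GFPpos replicate 1 low within its own.

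Itga2b stood at 79.4, 556 and 386 CPM in the GFPpos replicates and at 0.709, 29.8 and 0.472 CPM in the GFPneg replicates, with no overlap between the groups. The collagen receptor gene Gp6 was at 2.18, 21.1 and 13.7 CPM in the GFPpos replicates. In GFPneg it had 171 counts (2.04 CPM) in replicate 2 and 0 counts in replicates 1 and 3, where a count of 0 allows up to 3 counts, or 0.0443 and 0.0373 CPM. The groups did not overlap for Gp6, but GFPpos replicate 1, with 176 counts, and GFPneg replicate 2 were 1.07-fold apart.

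The genes of the receptor for von Willebrand factor did not all follow that pattern. Gp9 stood at 8.33, 71.3 and 71.7 CPM in the GFPpos replicates and at 15.3, 21.2 and 15.7 CPM in the GFPneg replicates, so GFPpos replicate 1 was the lowest of the 6 fresh libraries. Gp5 stood at 34.0, 174 and 172 CPM in GFPpos and at 12.2, 21.1 and 15.9 CPM in GFPneg, without overlap. Both genes were within 1.73-fold of each other across the 3 GFPneg libraries. Gp1ba stood at 15.6, 165 and 117 CPM in GFPpos and at 3.65, 13.1 and 3.41 CPM in GFPneg, without overlap. Gp1bb, whose exons overlap Sept5, stood at 3.25, 129 and 142 CPM in GFPpos and at 0.118, 7.04 and 0 CPM in GFPneg. In GFPneg, Gp1ba and Gp1bb were thus highest in replicate 2.

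Vwf, the ligand of that receptor, stood at 29.3, 333 and 258 CPM in the GFPpos replicates and at 28.4, 44.1 and 25.8 CPM in the GFPneg replicates. GFPpos replicate 1 lay between the GFPneg libraries. The endothelial markers went another way in GFPpos, with a sum of 297 CPM over 15 genes in replicate 1 and 114 and 94.7 CPM in replicates 2 and 3. Of these markers, Cdh5, the endothelial cadherin, had 402, 48 and 0 counts in the GFPpos replicates, and Pecam1 had 1045, 555 and 496. In GFPneg the endothelial sum was 91.2, 59.0 and 54.1 CPM. Of the 15 markers, 9 had 0 counts in GFPneg replicate 2 and 10 in replicate 3, among them Cdh5, Kdr and Emcn in both. Pecam1 had 83 and 30 counts (0.991 and 0.373 CPM) in these 2 libraries, and Vwf had 3695 and 2076. The other markers not at 0 thus made up nearly all of the endothelial sums there, 59.0 and 54.1 CPM. Those sums were above the Vwf levels of 44.1 and 25.8 CPM. The part of endothelium in the Vwf values was not tested.

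**Figure D1:**
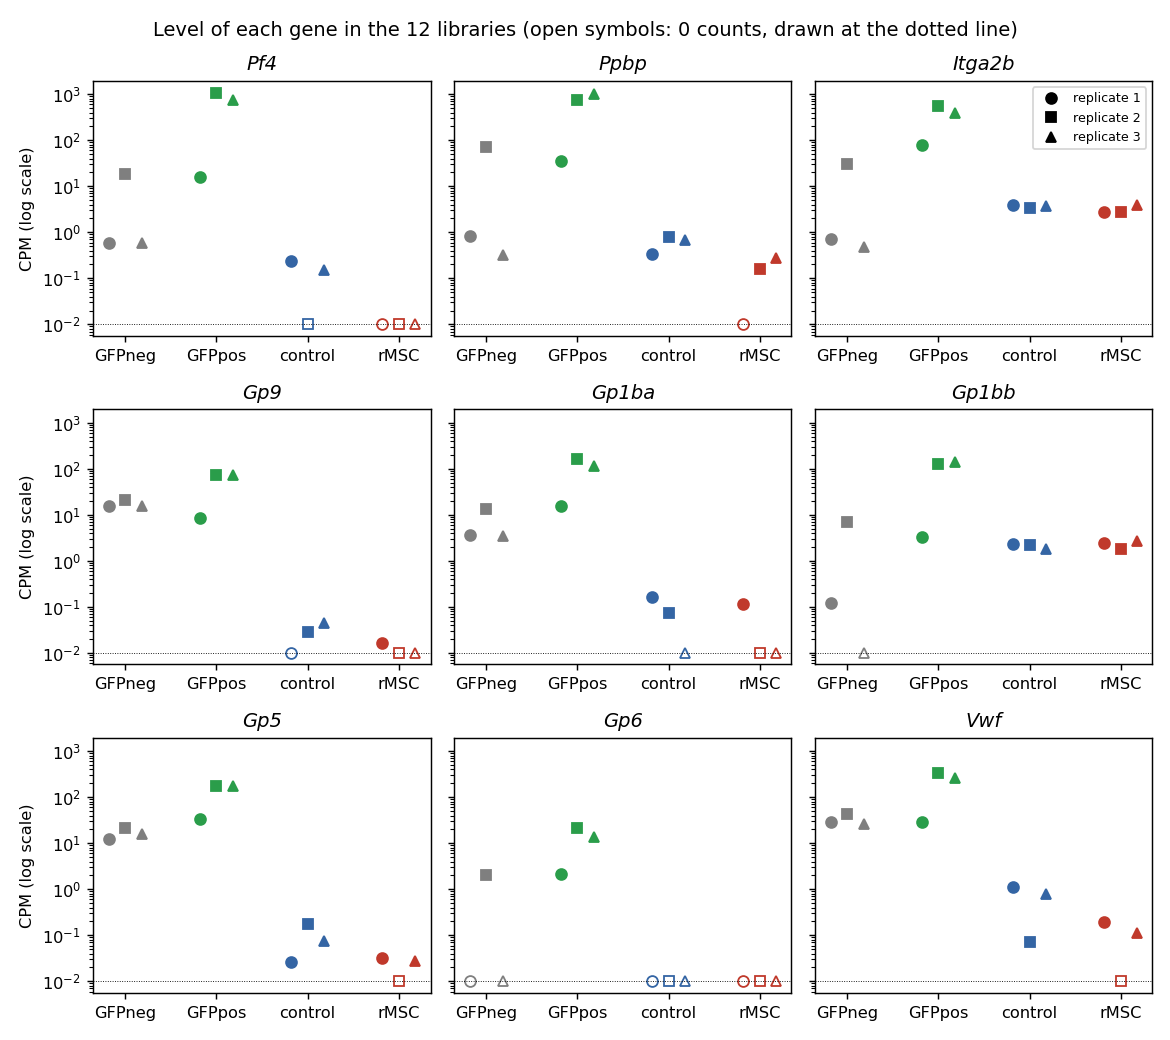
Level of each of the 9 genes in the 12 libraries, in CPM on a log scale, with 1 symbol per library and its shape giving the replicate number; open symbols on the dotted line had 0 counts. In GFPpos, replicate 1 is the lowest symbol in every panel, and in GFPneg replicates 1 and 3 are near or at 0 for Pf4, Ppbp, Itga2b, Gp1bb and Gp6 but not for Gp9, Gp5 or Vwf.

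Per kilobase of exon, which allows levels to be compared between genes, Pf4 and Ppbp led in each GFPpos library. In GFPpos replicate 2 Pf4 stood at 1502 and Ppbp at 694 CPM per kb, and in replicate 3 they stood at 1026 and 913. In replicate 1 their order was reversed, at 21.9 for Pf4 and 32.2 for Ppbp. Itga2b (62.4 ± 44.3 CPM per kb), Gp5 (57.6 ± 36.5), Gp9 (57.3 ± 41.4), Gp1bb (43.8 ± 36.7) and Gp1ba (36.5 ± 28.1) followed in GFPpos, each with an SD far wider than the steps between them. Vwf (12.9 ± 9.84) and Gp6 (2.09 ± 1.62 CPM per kb) were the lowest. In GFPneg replicates 1 and 3 the order was another one, led by Gp9 at 17.3 and 17.8 CPM per kb and Gp5 at 5.55 and 7.24, with Pf4 at 0.819 and 0.793.

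The comparison of GFPpos with GFPneg asked how the reporter-positive cells differed from the other cells of the depleted marrow. Of the 9 genes, 8 were called higher in the reporter-positive cells and 0 lower (edgeR's quasi-likelihood test with Benjamini-Hochberg adjustment across 15163 tested genes, threshold 0.05). Of all genes tested, 40.5% were called higher and 36.5% lower. The median log2 fold change was 4.16 over the 9 genes and 0.08 over all genes tested. No member was called lower at an unadjusted p under 0.05 or with DESeq2 either. The groups did not overlap, with GFPpos higher, for 4 of the 9 (Itga2b, Gp1ba, Gp5 and Gp6), and for 37.5% of all genes tested. With the 6 fresh libraries fitted alone, 5 of the 9 were called.

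Pf4 had the largest log2 fold change of the 9, 6.56 ± 1.80 (estimate ± SE, edgeR adjusted p = 0.00867). Gp5 had the lowest p, with 2.95 ± 0.53 (edgeR adjusted p = 0.000361). Gp1ba (3.88 ± 0.86, adjusted p = 0.00167), Itga2b (5.04 ± 1.32, adjusted p = 0.0049) and Vwf (2.66 ± 0.76, adjusted p = 0.00802) were called too, and these 5 genes were also called with the fresh libraries alone. Ppbp (4.58 ± 1.68, adjusted p = 0.0281), Gp1bb (5.24 ± 1.59, adjusted p = 0.0111) and Gp9 (1.54 ± 0.60, adjusted p = 0.036) were not called in that fit, with adjusted p = 0.0944, 0.0546 and 0.0681. Gp6 did not pass (4.16 ± 1.94, adjusted p = 0.0898). It passed without GFPneg replicate 2, the GFPneg library in which it was detected (12.71, adjusted p = 0.00394; 0.00394 to 0.333 over all alternatives). Gp6 had 0 counts in the GFPneg libraries left in that fit, so 12.71 is not a measured size. Gp6 also passed with the replicate number as a block (edgeR adjusted p = 0.0263).

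Single libraries moved these folds. Without GFPneg replicate 2 the log2 fold change was 10.05 for Pf4 and also for Ppbp, and 10.67 for Gp1bb. Gp1bb had 8 and 0 counts in GFPneg replicates 1 and 3, so its fold there is not a measured size. Ppbp did not pass without GFPneg replicate 1 (adjusted p = 0.0557) or without GFPpos replicate 3 (0.0552; 0.000221 to 0.0944 over all alternatives). Gp9 did not pass when any 1 of GFPneg replicates 1, 2 or 3, GFPpos replicates 2 or 3, control replicate 2 or rMSC replicate 1 was left out (adjusted p = 0.0505 to 0.124), and without GFPpos replicate 1 its adjusted p was 1.17e-05. Gp9 did not pass with the block either (adjusted p = 0.102).

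**Figure D2:**
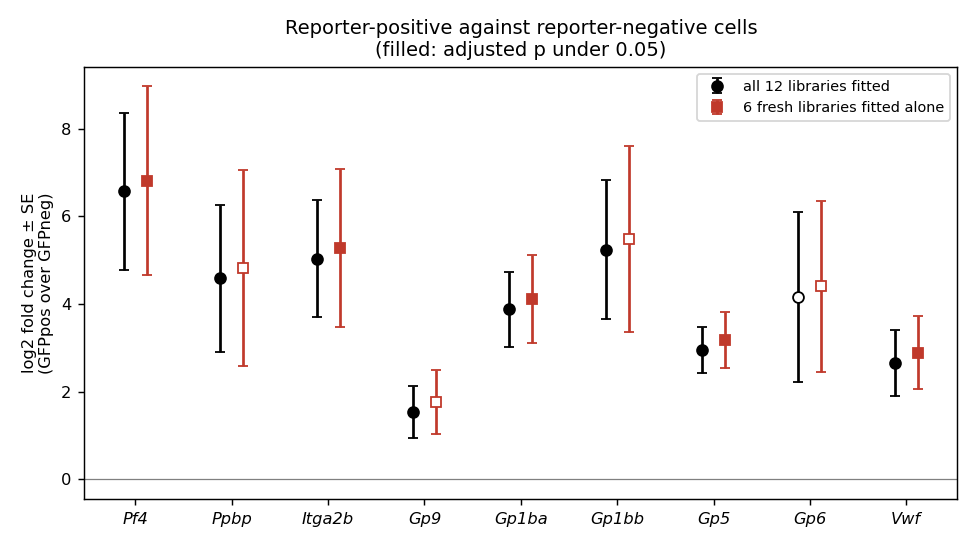
Log2 fold change of GFPpos over GFPneg for each gene, with bars of 1 SE, from the fit of all 12 libraries (circles) and of the 6 fresh libraries alone (squares); filled symbols have an adjusted p under 0.05. All estimates lie above 0, and 8 circles but 5 squares are filled.

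Within GFPpos, replicate 1 stood apart for every one of the 9 genes. Replicates 2 and 3 were each over 4-fold above replicate 1 for 9 of the 9, a step chosen after the values were seen, and for 1.6% of all genes tested. Pf4 was 68.6-fold higher in replicate 2 and 46.9-fold higher in replicate 3 than in replicate 1, and Gp1bb 39.7-fold and 43.6-fold. Gp5, the gene with the smallest step in replicate 2, was 5.11-fold and 5.04-fold higher. Between replicates 2 and 3 the levels of Pf4 were 1.46-fold apart. The stromal sum was 164206 CPM in replicate 1 against 208688 and 203355 in replicates 2 and 3, and Kitl was at 330, 292 and 479 CPM, so neither showed a step of that size. The granulocyte markers were high where the 9 genes were low, at 4448, 1675 and 916 CPM in the GFPpos replicates, and the 12 pan-haematopoietic markers summed to 674, 599 and 363 CPM. None of these lists had a marker at 0 counts in GFPpos, and their part in the result was not tested.

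Within GFPneg, replicate 2 stood apart for part of the genes. Pf4, Ppbp, Itga2b, Gp1bb and Gp6, or 5 of the 9, were over 4-fold higher in replicate 2 than in each of the others, as were 0.93% of all genes tested. This library and step were also chosen after the values were seen. Ppbp was 88.1-fold above replicate 1 and 225-fold above replicate 3, and Itga2b 42.0-fold and 63.0-fold. For Gp6 the step was at least 46.1-fold and 54.7-fold, with the other libraries set at 3 counts each. Gp1ba was 3.60-fold and 3.85-fold, Vwf 1.55-fold and 1.71-fold and Gp9 1.39-fold and 1.35-fold higher in replicate 2. The erythroid sum differed little between these libraries, at 7067, 7215 and 7296 CPM.

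The make-up of the 9 genes therefore differed between libraries. In GFPneg replicate 1, Vwf took 46.0% (exact 95% binomial interval 44.5 to 47.5%) and Gp9 24.7% (23.4 to 26.0%) of the 4183 counts of the 9 genes, and Pf4 took 0.956% (0.684 to 1.30%). GFPneg replicate 3 had much the same shares, with 41.5% for Vwf, 25.2% for Gp9 and 0.920% for Pf4. In GFPneg replicate 2, by contrast, Ppbp led with 31.8% of 19210 counts, ahead of Vwf with 19.2%.

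In GFPpos replicates 2 and 3, Pf4 and Ppbp together with Itga2b made up most of the counts, and Gp9 took 2.17% and 2.48%. Pf4 took 33.0% of 180152 counts in replicate 2 and 25.6% of 163210 in replicate 3. GFPpos replicate 1 was led by Itga2b, with 35.6% of 18002 counts (34.9 to 36.4%), and Pf4 took 7.08%. The summed counts of GFPpos replicate 1 and GFPneg replicate 2 were thus close (223 and 229 CPM) while their shares of Itga2b and Ppbp were not. The intervals cover the counting of reads alone. Amplified reads lacking molecular identifiers do not each stand for a molecule, so the intervals may be too narrow. Shares of counts also reflect gene length.

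**Figure D3:**
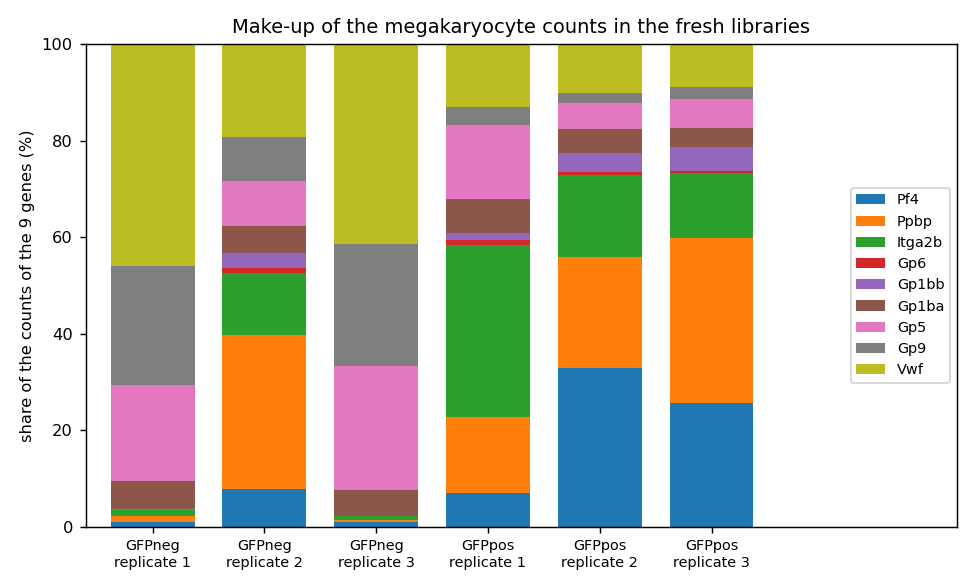
Share of each gene in the summed counts of the 9 genes, in percent, for the 6 fresh libraries. Vwf, Gp9 and Gp5 fill most of the bars of GFPneg replicates 1 and 3, while Pf4, Ppbp and Itga2b fill most of the bars of the GFPpos libraries and more of GFPneg replicate 2 than of the other GFPneg libraries.

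The comparison of control with GFPpos asked what changed when reporter-positive cells were cultured with the control vector. Culture and vector cannot be told apart in it. All 9 genes were lower in control and none higher, and the groups did not overlap for any of them. Of all genes tested, 35.9% were called lower and 32.5% higher, and for 35.7% the groups did not overlap in that direction. The median log2 fold change was -10.25 over the 9 genes (-9.93 with Gp6 at its bound) and -0.04 over all genes tested. Pf4 had 18, 0 and 10 counts in the control replicates (-12.16 ± 2.46, edgeR adjusted p = 0.00203). Gp5 had 2, 12 and 5 counts (-10.43 ± 0.83, adjusted p = 1.21e-06), and Gp9 had 0, 2 and 3 (-10.95 ± 1.06, adjusted p = 5.35e-06). Gp6 had 0 counts in every control library, at least 290-fold lower than in GFPpos with control set at 3 counts per library (edgeR adjusted p = 0.0146), and at least 186-fold lower without GFPpos replicate 2. Genes with so few counts in culture had passed the filter through the fresh groups, so the count of 9 is a description. The call held for all 9 genes in each of the 19 alternatives run.

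Some of the genes had a low level of counts in culture. Itga2b stood at 3.92, 3.37 and 3.67 CPM in control (294, 234 and 246 counts), with a log2 fold change of -6.54 ± 1.44 against GFPpos (edgeR adjusted p = 0.00199). Gp1bb, whose counts are uncertain because its exons overlap Sept5, stood at 2.28, 2.16 and 1.78 CPM (-5.46 ± 1.62, edgeR adjusted p = 0.0113). Both were tight between the cultures, and Gp1bb was closer to GFPpos replicate 1 (3.25 CPM) than to the other GFPpos libraries. Vwf had 84, 5 and 54 counts and Ppbp 25, 56 and 46.

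Against GFPpos, rMSC also held less of all 9 genes, without overlap between the groups, where 38.2% of all genes tested were called lower, 33.4% were called higher and 37.9% did not overlap in that direction. The median was -11.91 over the 9 genes (-11.36 with Pf4 and Gp6 at their bounds) and -0.08 over all genes tested. This comparison uses the same GFPpos libraries as the one with control, so the pair is not independent. Pf4 had 0 counts in every rMSC library, at least 13303-fold lower than in GFPpos with rMSC set at 3 counts per library (edgeR adjusted p = 0.00154), and Gp6 at least 268-fold lower (adjusted p = 0.0142). Without GFPpos replicate 2 these bounds were 8202-fold for Pf4 and 172-fold for Gp6. Itga2b stood at 2.83, 2.72 and 3.88 CPM in rMSC (-6.76 ± 1.45, adjusted p = 0.00161). Gp5 had 2, 0 and 2 counts, Gp1ba 7, 0 and 0, and Gp9 1, 0 and 0. Genes with so few counts in rMSC had passed the filter through the fresh groups, so here too the count of 9 is a description.

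The comparison of rMSC with control asked what the 5 transduced genes changed in culture. None of the 9 genes was called in either direction, against 24.5% of all genes tested called higher and 25.5% lower, and none had an unadjusted p under 0.05 in edgeR. Pf4, Gp5, Gp1ba, Gp9 and Gp6 had at most 28 counts summed over the control libraries and at most 7 over the rMSC libraries. They had passed the filter through the fresh groups and could hardly be called here, so nothing is read from the count of 0 beside those shares. The groups did not overlap for 1 of the 9, Ppbp, which was lower in rMSC, as were 36.7% of all genes tested. Gp6 was at 0 counts in both groups. With DESeq2, Pf4 (adjusted p = 0.0333; 0.0333 to 0.766 over all alternatives) and Vwf (adjusted p = 0.047) were called lower in rMSC. With the 6 culture libraries fitted alone, 4 of the 9 genes passed the filter (Ppbp, Itga2b, Gp1bb and Vwf), and of these Ppbp (-2.01, adjusted p = 0.0228) and Vwf (-2.68, adjusted p = 0.0167) were called lower. Vwf was also called lower without GFPpos replicate 1 (adjusted p = 0.0394; 0.0167 to 0.382 over all alternatives). Its counts were 12, 0 and 8 in rMSC against 84, 5 and 54 in control, and those of Ppbp were 0, 10 and 20 against 25, 56 and 46. For Itga2b the difference was -0.21 ± 1.25 and for Gp1bb 0.15 ± 1.44, with overlapping groups.

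Other genes of platelets were taken from lists, to be read beside the 40.5% of all genes tested that were called higher in GFPpos and the 36.5% called lower. Of 25 receptor and adhesion genes outside the 9, 21 were higher in GFPpos than in GFPneg and none was lower, with a median log2 fold change of 4.82. Of 36 granule, cytoskeleton and enzyme genes, 31 were higher and 1 lower, with a median of 4.24. Many of these genes are also used by stroma. Jam3, which encodes a junctional adhesion molecule, was at 43.1, 45.3 and 38.8 CPM in the GFPpos replicates and at 78.7, 82.1 and 79.7 CPM in control. Serpine2, a protease inhibitor gene (10.84 ± 0.96, edgeR adjusted p = 1.43e-06), Pdgfa, a growth factor gene, and Clu, which encodes clusterin, had high levels in all 3 GFPpos libraries as well. Pdgfa had 0 counts in all GFPneg libraries and 37.0 to 40.7 CPM in GFPpos.

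Itgb3, which encodes the integrin partner of Itga2b, was at 42.8, 600 and 388 CPM in GFPpos and at 0.738, 33.6 and 0.373 CPM in GFPneg (4.88 ± 1.43, edgeR adjusted p = 0.00899). It was low in GFPpos replicate 1, and high in GFPneg replicate 2 as were 5 of the 9 genes. Itgb3 stayed at 36.2 to 39.8 CPM in control (-3.18 ± 1.31, adjusted p = 0.0513 against GFPpos). Slc35d3, a transporter gene needed for platelet dense granules, was at 2.33, 30.6 and 17.4 CPM in GFPpos and had 0, 20 and 0 counts in GFPneg.

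Tubb1, the beta-tubulin of the platelet rim, did not share the step in GFPpos. It stood at 82.9, 86.2 and 125 CPM in the GFPpos replicates, so replicate 1 was close to replicate 2, and at 0.384, 19.4 and 0.423 CPM in GFPneg (3.86 ± 1.29, edgeR adjusted p = 0.0222). P2ry12, an ADP receptor of platelets that microglia and some macrophages also use, was highest in GFPpos replicate 1, at 5.26, 4.72 and 3.26 CPM, and had 0, 14 and 0 counts in the GFPneg replicates. The monocyte and macrophage sum ran in the same order in GFPpos, at 125, 107 and 66.3 CPM, but stood at 9.26, 6.96 and 6.55 CPM in GFPneg, and its part in the P2ry12 values was not tested.

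Of the receptor list, 8 of 25 genes were over 4-fold lower in GFPpos replicate 1 than in each of the others, and of the granule list 8 of 36, against 1.6% of all genes tested. In GFPneg replicate 2, 10 of 25 and 14 of 36 were over 4-fold higher than in each of the others, against 0.93%. Both steps were shared by 39 of the genes tested, 0.257% of them. Of the 39, 5 were among the 9 genes and 11 in the lists, among them Itgb3, G6b, Treml1, F2rl2, Lat, Selp, Mmrn1, Slc35d3, Tbxas1 and Alox12.

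The transcription factors of megakaryocytes split in the comparison of GFPpos with GFPneg, with 5 of 18 higher and 10 lower (median log2 fold change -1.02), beside 40.5% and 36.5% of all genes tested. Gata1, a factor of both red cells and megakaryocytes, was lower in GFPpos, at 174, 180 and 108 CPM against 570, 562 and 472 CPM (-1.80 ± 0.21, edgeR adjusted p = 1.46e-05). The erythroid sum was lower in GFPpos too, and its part in the Gata1 values was not tested. Gata1 had no step over 4-fold in GFPpos replicate 1 or GFPneg replicate 2. Fli1, an ETS factor of megakaryocytes and endothelium, was at 16.0, 35.4 and 30.7 CPM in GFPpos and at 2.75, 2.29 and 0.609 CPM in GFPneg (3.86 ± 0.50, adjusted p = 3.08e-05). Meis1, a homeobox factor, was at 8.45, 32.2 and 26.2 CPM in GFPpos and higher still in control, at 50.4 to 53.5 CPM. Mef2c, a MADS-box factor, was at 83.7, 207 and 126 CPM in GFPpos (4.97 ± 0.35, edgeR adjusted p = 2.39e-07). None of the 18 factors had a step over 4-fold in GFPpos replicate 1 or GFPneg replicate 2.

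The lists were also counted in culture, where 35.9% of all genes tested were lower and 32.5% higher in control than in GFPpos. Of the receptor genes, 17 of 25 were lower and 4 higher in control than in GFPpos (median log2 fold change -7.46, or -7.27 with genes at 0 in control set at their bounds), of the granule genes 25 of 36 lower and 5 higher (-4.19), and of the factors 11 of 18 lower and 4 higher (-4.21). Between rMSC and control, 8 of the 25 receptor genes were lower and 1 higher, 7 of the 36 granule genes lower and 10 higher, and 6 of the 18 factors lower and 5 higher, beside 25.5% of all genes tested lower and 24.5% higher. Among the lower receptor genes were Jam3, at 1.64 to 3.03 CPM in rMSC, and Pear1, a platelet endothelial receptor gene, at 0.594 to 0.621 CPM against 113 to 117 CPM in control (-7.56 ± 0.39, edgeR adjusted p = 1.27e-07). Adra2a, an adrenergic receptor gene, had 0 counts in all rMSC libraries and 942 to 1044 counts in control. None of these 3 genes had the step of the 9 genes in GFPpos replicate 1.

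**Figure D4:**
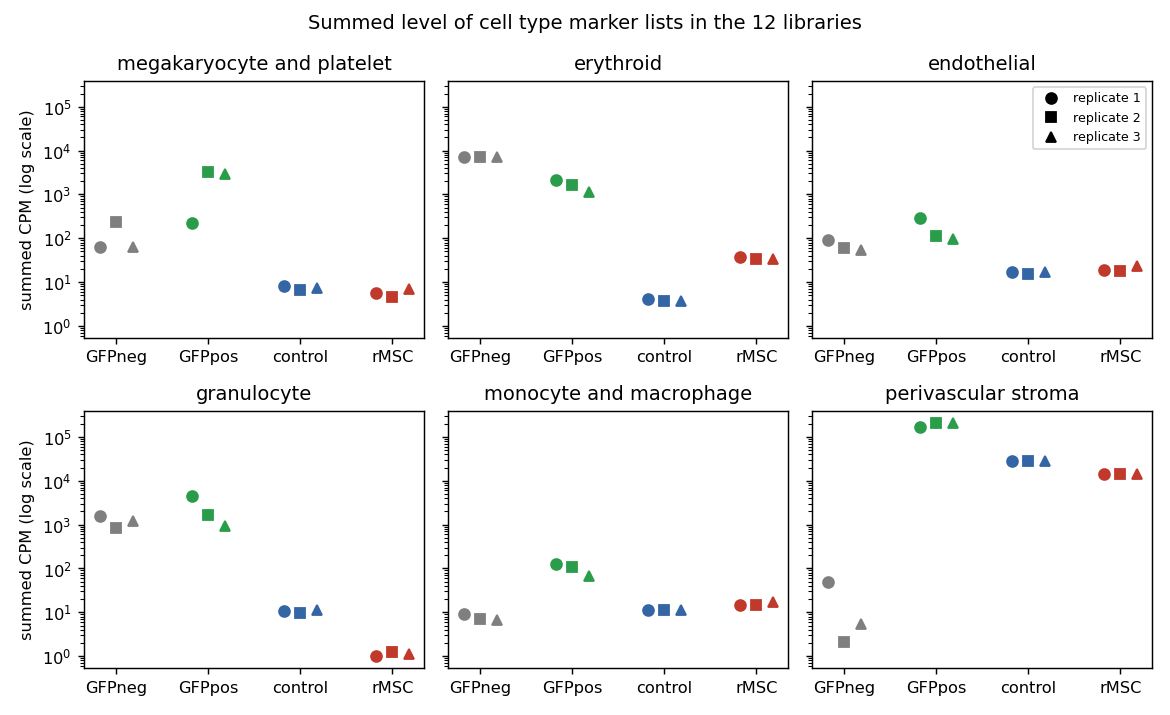
Summed level of 6 lists of cell type markers in the 12 libraries, in CPM on a log scale, with the symbol shape giving the replicate number. The megakaryocyte sum of GFPpos replicate 1 lies near that of GFPneg replicate 2, while the erythroid, endothelial and granulocyte sums of GFPpos are highest in replicate 1.

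Over the 12 libraries, the genes whose profile lay nearest to the mean of the 9 genes were F10, Ly6g6f, G6b, Lat, Slamf1 and Kcnj5. Nearness was the root mean square difference of log2 CPM profiles centred on their means, taken over 11845 genes of at least 5 CPM in some group, and these 6 had 0.794 to 1.07 where the median gene had 4.02. F10, which encodes coagulation factor X, was at 1.66, 75.2 and 28.4 CPM in the GFPpos replicates and at 0.620, 1.46 and 0.124 CPM in GFPneg. G6b, an inhibitory receptor gene of platelets, was at 3.59, 27.4 and 36.4 CPM and at 0.0295, 3.35 and 0.0497 CPM. Slamf1, at 4.60, 5.80 and 9.29 CPM in GFPpos, did not have the 4-fold step in GFPpos replicate 1. F10 did not have the 4-fold step in GFPneg replicate 2. Nearness over the 12 libraries thus did not mean that a gene shared both steps. Among the 9, Gp6 was nearest to their mean (1.11) and Gp1bb farthest (3.19).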

How the data were processed

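Per the labels' protocols, total RNA of 1000 to 5000 sorted cells was made into libraries with the SMART-Seq v4 and Nextera XT kits and read as 150 bp single ends. The submitters' processing notes name STAR 2.4.1c, featureCounts 1.4.6 and mm10, and the extract protocol names GRCm38 release 77; the strand setting is not given in the sources used here. The deposited values are raw counts per gene symbol, made by the authors. The 27 symbols turned into dates were left out (0.183 to 0.369% of counts).

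Counts were tested in R 4.3.3 with edgeR 4.0.16 (TMM factors, filterByExpr, quasi-likelihood F-test) with 4 groups over all 12 libraries, and p-values were adjusted over the 15163 genes that passed. SE is the fold change divided by the root of F. Spread differed between groups (biological coefficient of variation 48.2% for GFPpos, 29.3% for GFPneg, 7.26% for rMSC, 7.00% for control), while the fit shares one estimate per gene among all groups. The procedure was first tested on simulated data with known changes, and every reported result is from the deposited counts. Alternatives were RLE factors, DESeq2 1.42.0, no filter, at least 50 counts in 3 libraries, 2 groups alone, a replicate block, each library left out, and, chosen after seeing the data, replicate 1 left out of both fresh groups.

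The genes and lists were chosen with earlier results of these data known. From each list were named the 4 genes of largest absolute fold change called between GFPpos and GFPneg, and Gata1, Itgb3 and Tubb1; some genes the rule names are not reported here. In the lists, 5 symbols were matched through RefSeq synonyms, such as G6b. No replicate pair had counts within sampling noise.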

Additional observations from a re-analysis of the deposited data

How the results depend on the processing

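Against GFPpos, the members called lower in control (9) and in rMSC (9) did not change under any of the 19 alternatives. Members with few counts in culture had passed the filter through the fresh groups, so these counts are a description. For GFPpos against GFPneg, 8 members were called higher; 5 were with the 2 groups fitted alone and 6 to 8 with 1 library left out. For rMSC against control, 0 members were called lower; 2 were with DESeq2, 2 with the 2 groups alone (of the 4 that passed the filter there), 1 when both fresh groups were reduced to replicates 2 and 3, and 0 to 1 with 1 library left out. The cause was not tested. Of 171 member folds recomputed for GFPpos against GFPneg, 13 lost and 2 gained a call, of 148 for rMSC against control 6 gained one, and no sign reversed. Counts over all genes stayed within 1.5 times. RLE factors moved the median fold of all genes by 0.12 (log2) for GFPpos against GFPneg, and the 8 calls stood.

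Whether the replicate number was a pairing in the fresh groups was not settled by the check used. Same-numbered libraries of GFPpos and GFPneg correlated in their deviations from the group means at 0.160, 0.151 and 0.017. Differently numbered libraries of these groups correlated at -0.169 to 0.042. In the other comparisons same-numbered libraries correlated at -0.025 to 0.021. With the replicate block, 8 members were higher in GFPpos, with Gp6 in place of Gp9, and 9 lower in each culture group. Low counts limit the culture comparisons, because several of the 9 genes had under 20 counts there.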

Other observations

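The step shared by GFPpos replicate 1 and GFPneg replicate 2 was also found in 23 genes that were neither among the 9 nor in the platelet lists. The lists do not hold every gene of platelets, and whether platelets use these 23 was not tested. Those named here were chosen after their values were seen. Gnaz, a G protein subunit gene, was at 2.72, 63.7 and 43.5 CPM in the GFPpos replicates and at 0.118, 3.70 and 0.0746 CPM in the GFPneg replicates. Trpc6, a cation channel gene, was at 3.64, 52.6 and 30.4 CPM in GFPpos and was detected in GFPneg in replicate 2 alone, at 1.31 CPM. Ank3, which encodes an ankyrin, was at 5.12, 35.1 and 56.3 CPM in GFPpos and at 0, 1.27 and 0.0249 CPM in GFPneg. Dok2, an adaptor gene, was at 2.67, 56.0 and 27.7 CPM and at 0.414, 1.89 and 0.398 CPM.

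Thpo, which encodes thrombopoietin, had 62, 75 and 100 counts in the rMSC libraries, 12, 28 and 17 in control and 0, 10 and 0 in GFPpos. It was chosen after its values were seen, and no test of it is given.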
